A study of Homo sapiens with 22 samples.

Results

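ETV4, SOX17, FOXA1 and FOXA2 encode transcription factors that work beside estrogen receptor alpha (ESR1) in epithelial cells, and ESR1 binding around these 4 genes was examined in Ishikawa cells, an endometrial adenocarcinoma line. Every peak that overlapped a fixed window around 1 of the genes was taken. In hg19 coordinates the windows were chr17:41560000-41720000 for ETV4, chr8:55270000-55470000 for SOX17, chr14:37960000-38160000 for FOXA1 and chr20:22460000-22660000 for FOXA2. They held 144 of the 356467 peaks used and 29 of the 93612 regions made by joining overlapping peaks of all lists. ETV4 had 55 peaks in 11 regions, SOX17 58 peaks in 10 regions, FOXA1 31 peaks in 8 regions and FOXA2 none.

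The libraries came from chromatin precipitated with an antibody against a FLAG tag on ESR1. ESR1 was wild type in 2 clones and carried the D538G substitution in 3 clones, each clone with 2 replicates per treatment, and all clones carried the tag. All cells were kept without estrogen for at least 5 days and then given 10 nM estradiol (E2) or the solvent DMSO at 0.1% for 1 h. This gave 4 wild-type DMSO, 4 wild-type E2, 6 D538G DMSO and 6 D538G E2 libraries, each with its own peak list. The 2 input samples, 1 per genotype, were not used here. Libraries of 1 clone share that clone, so the spread between libraries is partly the spread between repeats of the same clonal line. The tests between genotypes took libraries, not the 3 and 2 clones, as units, so their p-values can be too small.

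ESR1 is a hormone-activated receptor that binds DNA at estrogen response elements and at sites opened or held by other factors. FOXA1 and FOXA2 are forkhead pioneer factors, which can bind closed chromatin. FOXA1 is best known as the factor that opens ESR1 sites in breast cancer cells, and FOXA2 is a factor of the glands of the uterus. SOX17 is an HMG-box factor needed for uterine glands, and ETV4 is an ETS-family factor whose motif is common at ESR1 sites in endometrial cancer cells. The D538G substitution lies in the ligand-binding domain of ESR1 and is known for activity of the receptor without hormone.

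The lists differed widely in length, which touches every result below. The wild-type DMSO lists held 51 and 29118 peaks in clone 1 and 45 and 1080 in clone 2. The wild-type E2 lists held 5757 to 35344 peaks, the D538G DMSO lists 1619 to 54903 and the D538G E2 lists 1977 to 49223. Read depth is unknown. All deposited peaks had a −log10 p of at least 10.0, so a missing peak says only that none passed the authors' threshold. Inside the D538G clone 2 replicate 1 list labelled E2, the peak names hold the word Ctl, which goes against the label. The replicate 1 DMSO lists of all clones hold Ctl or ctl too, that of D538G clone 2 included. No other E2 list does. Values are given with and without this E2 list where it decides a direction. The peak names of 4 D538G lists, replicate 1 of clones 1 and 2 under both treatments, hold the word Input, and those of no wild-type list do. Whether input was used alike for every list is not stated, and its part in the list lengths, presence and ranks compared between genotypes was not tested.

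A site is named here by the distance of its midpoint from the centre of its window, which is not the start of the gene. Its rank within a list is given as a percentile by the authors' signal value, where 100 is the strongest peak of that list and 0 stands for no peak. In the gene table of RefSeq all 4 genes were found. That table belongs to another genome build than the lists, so no site was placed in an exon, intron or promoter. No genome of the build of the lists was used here, so no site sequence is given.

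**Figure D1:**
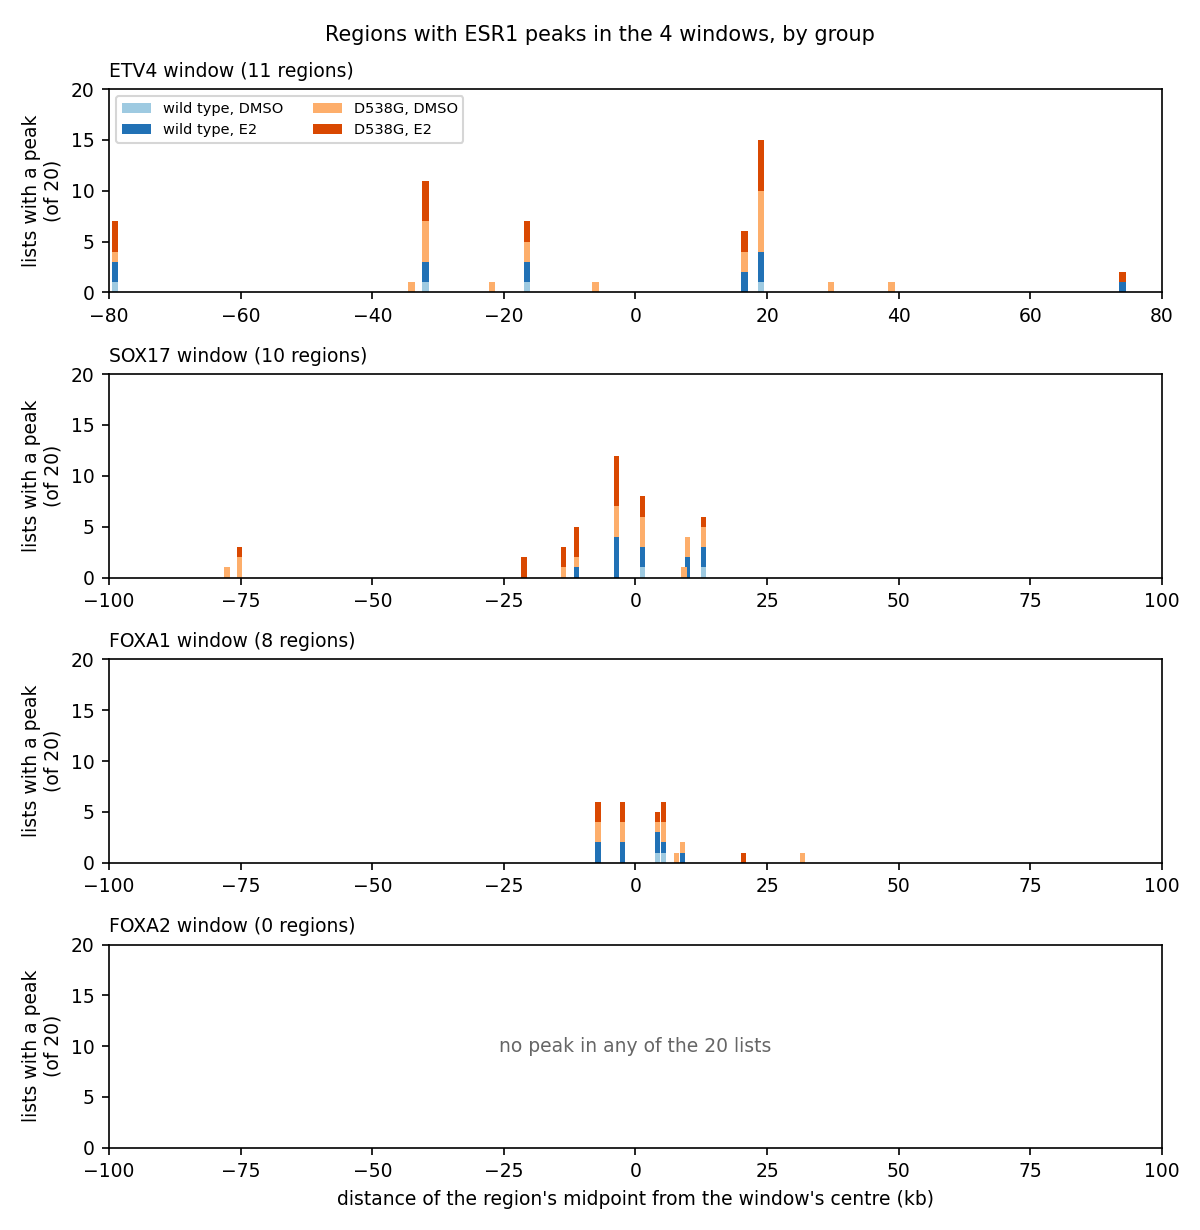
Number of the 20 lists with a peak in each region of the 4 windows, stacked by group, against the distance of the region's midpoint from the window's centre in kb. The tallest bars stand at +19.1 kb in the ETV4 window with 15 lists and at -3.6 kb in the SOX17 window with 12, the FOXA1 bars reach 6, and the FOXA2 window is empty.

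In the ETV4 window, the site ETV4 +19.1 kb (chr17:41658671-41659478) had a peak in 15 of the 20 lists, more than any other region of the 4 windows. It was found in 1 of 4 wild-type DMSO lists, 3 of 4 wild-type E2 lists, 6 of 6 D538G DMSO lists and 5 of 6 D538G E2 lists. Every D538G clone showed it without hormone, in both replicates. It was also the strongest peak of the window in 14 of the 15 lists with any peak there.

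In each group the median percentile at ETV4 +19.1 kb, over the lists with a peak, was at least 83.7, but single lists were far lower. The 1 wild-type DMSO list with a peak, that of clone 1 replicate 2, had it at 97.0, and the other 3 had none. In wild type with E2, clone 1 had 63.3 and 95.3, and clone 2 had no peak and 91.5. The D538G DMSO lists had a lowest value of 30.8, a median of 83.7 and a highest of 99.3. The 30.8 came from the list of 4032 peaks, and that of 1619 peaks had 40.2. The D538G E2 lists with a peak ranged from 67.8 to 99.0, and clone 2 replicate 2 had none. The groups overlapped, and the peak summits of the 15 lists fell within 124 bp of each other (SD 29.2 bp), so the lists share 1 narrow position. Every list longer than 5757 peaks held the site. The lists without it were the wild-type E2 list of 5757 peaks, the D538G E2 list of 1977 and the wild-type DMSO lists of 51, 45 and 1080. Among lists of at most 5757 peaks, only the D538G DMSO lists of 1619 and 4032 peaks held it. The part of list length in this pattern was not tested.

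Under DMSO, the difference in presence at ETV4 +19.1 kb between D538G (6 of 6) and wild type (1 of 4) gave p = 0.0333 by Fisher's exact test, two-sided, and an adjusted p of 1 over the 32172 regions tested. These libraries came from 3 D538G and 2 wild-type clones, and the test counted replicates of a clone as separate units. Of all regions tested, 3.57% reached an unadjusted p under 0.05 in this direction, 0% in the other, and 0% passed after Benjamini-Hochberg adjustment. The other direction needs a peak in at least 3 of 4 wild-type DMSO lists, and 2 of these held 51 and 45 peaks. Its 0% was therefore nearly fixed in advance. Of the 29 regions in the windows 14 were tested and only ETV4 +19.1 kb reached the unadjusted threshold. Without either of the 2 wild-type DMSO lists under 100 peaks, or without that of clone 2 replicate 2, its exact p was 0.0833, and without both of the former it was 0.25. Leaving out wild-type DMSO clone 1 replicate 2, the only one of the 4 with the site, gave an exact p of 0.0119. Leaving out any 1 D538G DMSO list gave 0.0476. When only the 1000 strongest peaks of a list counted, 3 of 6 DMSO lists of D538G and 1 of 4 of wild type held the site, a difference of 25 percent of lists in place of 75, with an exact p of 0.571.

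Further ETV4 sites were found in fewer lists. ETV4 -31.9 kb (chr17:41607627-41608633) had a peak in 11 lists, of which 8 were D538G lists, 4 under each treatment. In wild type it was seen in clone 1 only, in 3 of 4 lists, and in none of the 4 lists of clone 2. It was in 5 of the 7 lists with more than 20000 peaks and in 6 of the 13 shorter ones, and the longest list of all, of 54903 peaks, lacked it. Its percentiles ran from 8.50 to 94.3, a wide range for 1 site.

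ETV4 -79.1 kb (chr17:41560268-41561597), at the edge of the window, had a peak in 7 lists. In wild-type DMSO clone 1 replicate 2 it ranked 58 of 29118 peaks, at percentile 99.8, the only list in which another site than +19.1 kb led the window. In wild type with E2 it was at 92.2 and 87.9 in the replicate 2 lists of clones 1 and 2 and absent from the others. The only D538G DMSO list with it had it at 91.4, whereas the 3 D538G E2 lists with it had 15.5 to 37.8. The difference in these percentiles was not tested, and the summits in the 7 lists spread over 862 bp.

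ETV4 -16.5 kb (chr17:41622887-41624199) was seen in 7 lists, which were the 7 lists with more than 20000 peaks and no other, a length chosen after the values were seen. ETV4 +16.6 kb (chr17:41656288-41656843) was seen in 6 of those 7, lacking in wild-type DMSO, and in none of the 13 shorter lists. At -16.5 kb the percentile was 80.7 in the wild-type DMSO list and 74.8 and 83.3 in the 2 wild-type E2 lists. In the D538G lists with a peak there it was 10.0 to 56.8, lower than in each wild-type list with a peak. Of the other 6 ETV4 regions, 5 had a peak in 1 list, always D538G DMSO clone 1 replicate 2, and ETV4 +74.0 kb in 2 lists.

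**Figure D2:**
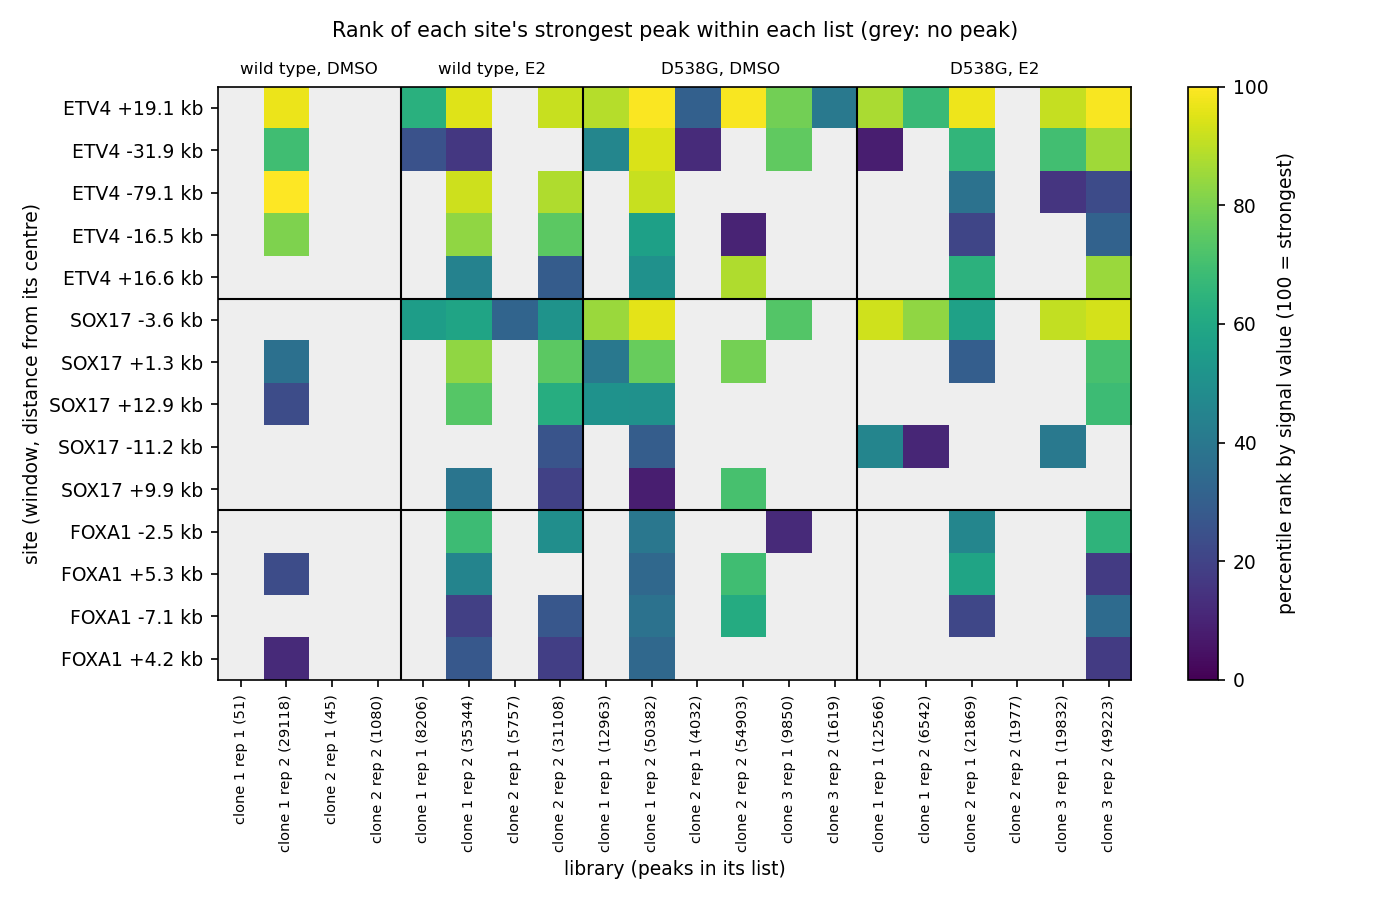
Percentile rank by signal value of the strongest peak at each of the 14 sites with a peak in at least 4 lists (rows), in each library (columns, with the number of peaks in its list), grey where there is no peak. ETV4 +19.1 kb is filled in all 6 D538G DMSO lists, SOX17 -3.6 kb in all 4 wild-type E2 lists and in no wild-type DMSO list, and the FOXA1 rows are filled mostly in the long lists.

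In the SOX17 window, the leading site SOX17 -3.6 kb (chr8:55365242-55367638) was found in all 4 wild-type E2 lists and in 0 of 4 wild-type DMSO lists. It was also found in 3 of 6 D538G DMSO lists and 5 of 6 D538G E2 lists, so mutant receptor was detected there without hormone in some libraries. It spanned 2397 bp, the widest region of the 29, and its summits lay within 321 bp. It led the window in 10 of the 14 lists with a SOX17 peak.

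In the wild-type E2 lists SOX17 -3.6 kb stood at percentiles 55.7 and 58.4 in clone 1 and 32.1 and 51.3 in clone 2. The D538G E2 lists with a peak had 57.3 to 93.7, with a median of 90.8, and 1 list had none. The D538G DMSO lists with a peak had 73.2, 84.9 and 95.8, and 3 had none. Where a D538G list held the site, its rank was above those of all 4 wild-type E2 lists. The exception was the 57.3 of the E2 list whose peak names hold Ctl. This is a description of the lists with a peak and was not tested.

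Presence of SOX17 -3.6 kb followed list length in part. No list shorter than 5757 peaks held it, the wild-type DMSO lists of 51, 45 and 1080 peaks included. Of the longer lists, only the wild-type DMSO list of 29118 peaks and the D538G DMSO list of 54903 peaks lacked it. The part of list length in this pattern was not tested. By clone, the site was in 4 of 4 lists of D538G clone 1, 3 of 4 of clone 3 and 1 of 4 of clone 2. The 1 of clone 2 was the E2 list named Ctl. Both wild-type clones had the site in 2 of 4 lists, those with E2.

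In wild type, the E2 difference at SOX17 -3.6 kb (4 of 4 against 0 of 4) gave p = 0.0286 by Fisher's exact test, two-sided, the smallest that 4 against 4 can give, and an adjusted p of 0.306 over 29233 regions. Among all regions tested, 9.34% reached the unadjusted threshold with E2 higher, 0% with DMSO higher, and 0% after adjustment. With DMSO higher, that threshold needs a peak in 4 of 4 wild-type DMSO lists, and 2 of these held 51 and 45 peaks. The 0% on that side was therefore nearly fixed in advance. Of the 13 window regions tested, SOX17 -3.6 kb was the only one to reach the unadjusted threshold. With libraries of the same clone and replicate number paired, the exact p was 0.125, the smallest that 4 pairs can give. Without the 2 wild-type DMSO lists under 100 peaks the exact p was 0.0667. In D538G the same contrast at this site was 5 of 6 against 3 of 6 lists, with an exact p of 0.545.

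SOX17 +1.3 kb (chr8:55370161-55372442) had peaks in 8 lists, among them all 7 lists of more than 20000 peaks. Its percentile was 37.0 in wild-type DMSO clone 1 replicate 2, and 83.2 and 74.9 in the replicate 2 lists of wild-type clones 1 and 2 with E2. In D538G it ranged from 40.2 to 79.1 in 3 DMSO lists and was 30.0 and 70.8 in 2 E2 lists. Lists of both genotypes and treatments therefore held this site, mostly long ones.

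Further out, SOX17 +12.9 kb (chr8:55382578-55383255) was in 6 lists. SOX17 -11.2 kb (chr8:55358558-55359121) was in 5 lists, 3 of them D538G E2 lists and none wild-type DMSO. SOX17 +9.9 kb (chr8:55379609-55380194) was in 2 wild-type E2 and 2 D538G DMSO lists and in none of the 6 D538G E2 lists. The genotype difference under E2 at the last site gave an exact p of 0.133. The other 5 regions had a peak in 1 to 3 lists, all of them D538G lists.

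Outside the SOX17 window, the nearest region before it (chr8:55263560-55264316) lay 5.68 kb from its edge and had a peak in none of the wild-type DMSO lists, 4 of the wild-type E2 lists, 3 of the D538G DMSO lists and 5 of the D538G E2 lists. These are the counts of SOX17 -3.6 kb, 103 kb away, and the calls of both regions were the same in 16 of the 20 lists. On the other side the nearest region was 380 kb away, with a peak in 4 D538G E2 lists and no other.

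In the FOXA1 window, peaks were found in 8 of 20 lists, and no region had more than 6. Of the lists with more than 20000 peaks all 7 held a FOXA1 peak, and of the 13 shorter ones 1 did. In wild type, 1 of 4 DMSO and 2 of 4 E2 lists had a peak, and in D538G 3 of 6 DMSO and 2 of 6 E2 lists did. The 12 lists without a peak include the D538G E2 list of 19832 peaks.

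The leading site, FOXA1 -2.5 kb (chr14:38057176-38057825), had summits within 75 bp in its 6 lists. It stood at 68.5 and 49.4 in the replicate 2 wild-type E2 lists of clones 1 and 2, at 39.7 and 12.1 in 2 D538G DMSO lists, and at 46.0 and 65.2 in 2 D538G E2 lists. No wild-type DMSO list had it, the one of 29118 peaks included. In D538G both E2 values lay above both DMSO values, and 4 lists of each treatment had no peak. The 46.0 came from the E2 list whose peak names hold Ctl, and without it the 65.2 of 1 E2 list remained.

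FOXA1 +5.3 kb (chr14:38064842-38065681) and FOXA1 -7.1 kb (chr14:38052596-38053200) were each in 6 of the 7 long lists and in no shorter one. FOXA1 +4.2 kb (chr14:38063658-38064684) was in 5 of them. Percentiles reached 69.5 at +5.3 kb and 61.6 at -7.1 kb, both in D538G DMSO clone 2 replicate 2, and 33.8 at +4.2 kb. No FOXA1 peak reached the percentiles above 90 that were seen in the ETV4 and SOX17 windows. The remaining 4 regions, from +7.8 to +31.8 kb, were in 1 or 2 lists each. Thus all ESR1 peaks called in the FOXA1 window of 200 kb fell in 8 regions within -7.1 and +31.8 kb of its centre.

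Outside the FOXA1 window, the nearest region before it (chr14:37906754-37907118), 52.9 kb from its edge, had a peak in 2 wild-type E2 and 4 D538G E2 lists and in none of the 10 DMSO lists. No test of this region is given, since it lies outside the window.

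The FOXA2 window held no peak in any of the 20 lists, the 7 lists of more than 20000 peaks included. The nearest regions lay 773 kb before and 407 kb after it, each with a peak in 1 D538G DMSO list. The nearest regions with a peak in at least 4 lists lay 871 kb before and 671 kb after it, in 5 and 8 lists. The stretch without any peak, chr20:21687395-23066706, was 1379 kb long. Among 93588 gaps between neighbouring regions 131, or 0.140%, were at least as long, 4 of them on chromosome 20, and the median gap was 3.40 kb. This share counts gaps and not the length they cover. A window placed in advance falls in a long gap more often than this share says. Of 15259 tiles of 200 kb over the genome, 31.9% held no region, so an empty window of this size is common.

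Set against such tiles, the other windows held more regions than most. A tile of 160 kb held a median of 1 region, and 12.2% of 19076 tiles held at least the 11 of the ETV4 window. Only 6.19% of these tiles had a region found in 15 or more lists, as ETV4 +19.1 kb was. Tiles of 200 kb held a median of 2 regions, with 16.4% holding at least the 10 of SOX17 and 19.99% at least the 8 of FOXA1. A region in 12 or more lists, as at SOX17, was in 14.0% of tiles, and one in 6 or more lists, as at FOXA1, in 46.1%. The tiles are given as a description and they include stretches where reads cannot be placed.

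Of the 29 regions, 13 had peaks in D538G lists only and 0 in wild-type lists only, while 16 had peaks in both. Over all regions these shares were 56.3% for D538G lists only and 3.78% for wild-type lists only. D538G has 12 lists and wild type 8, and the windows' 44.8% for D538G lists only is below the share over all regions. All 8 window regions with a wild-type DMSO peak also had a wild-type E2 peak. Over all regions 19973 of 24523 did. The median number of lists with a peak was 3 in the windows and 2 over all regions.

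**Figure D3:**
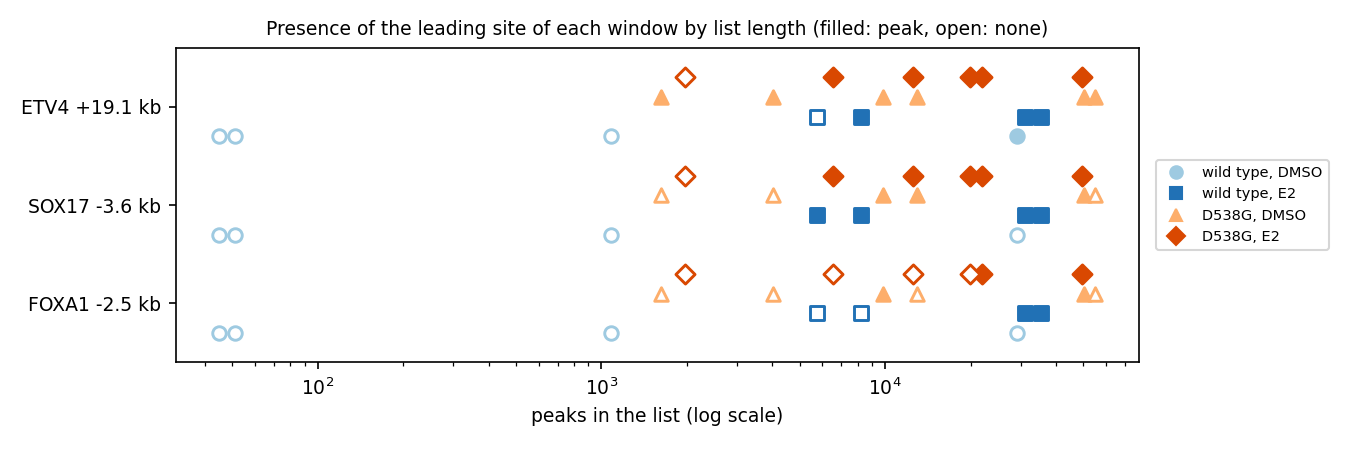
Presence (filled) or absence (open) of a peak at the leading site of the ETV4, SOX17 and FOXA1 windows in each of the 20 lists, against the number of peaks in the list on a log axis, by group. ETV4 +19.1 kb is filled in D538G DMSO lists from 1619 peaks up and in every list longer than 5757 peaks. SOX17 -3.6 kb is open in every list shorter than 5757 peaks and in those of 29118 and 54903 peaks. FOXA1 -2.5 kb is open in all lists shorter than 9850 peaks.

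The strongest peak of each window was then compared between groups. At ETV4 its percentile was 25.0 ± 49.9 (SD, n = 4) in wild-type DMSO, 62.5 ± 44.1 (SD, n = 4) in wild-type E2, 72.8 ± 30.0 (SD, n = 6) in D538G DMSO and 73.9 ± 37.9 (SD, n = 6) in D538G E2. At SOX17 it was 9.25 ± 18.5, 61.5 ± 22.7, 55.5 ± 43.6 and 69.7 ± 36.7 in the same order. At FOXA1 it was 5.77 ± 11.5, 29.5 ± 34.9, 20.2 ± 28.6 and 20.6 ± 31.9. FOXA2 was at 0 in all groups. In each of the first 3 windows the wild-type DMSO mean was the lowest, resting on 1 of 4 lists.

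By exact two-sided permutation tests adjusted over 16 comparisons, no window had an adjusted p under 0.05, which does not show that the groups were alike. The smallest p was 0.0571 (adjusted 0.610), for wild-type E2 minus DMSO at SOX17, a difference of 52.3 percentile points with the E2 list higher in 4 of 4 pairs of the same clone and replicate. The D538G minus wild-type difference under DMSO was 47.9 at ETV4, with an exact p of 0.0762 (adjusted 0.610), and 46.2 at SOX17, with an exact p of 0.119 (adjusted 0.635). When only the 1000 strongest peaks of a list counted, the difference by genotype under DMSO turned to -4.42 at ETV4 (exact p = 1), and both SOX17 differences were 0. The wild-type side of that ETV4 value came from 1 list, clone 1 replicate 2, by its peak at ETV4 -79.1 kb. At ETV4 +19.1 kb, 3 of 6 D538G and 1 of 4 wild-type DMSO lists still held a peak. The design could reach an exact p of 0.0286 with 4 against 4 libraries and 0.00476 with 6 against 4. Adjusted over 16 tests, 1 window alone could not pass 0.05 even at these values. With 6 against 6, as in D538G E2 against DMSO, the smallest exact p was 0.00216, at which 1 window alone could pass. The FOXA2 tests among the 16 held only values of 0. FOXA1 gave differences of 23.7 for wild-type E2 minus DMSO and 14.4 for D538G minus wild type under DMSO, with exact p of 0.429 and 0.495.

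With E2 against DMSO in D538G, the differences were 1.04 at ETV4 (exact p = 0.981), 14.2 at SOX17 (exact p = 0.584) and 0.346 at FOXA1 (exact p = 1). Without the D538G clone 2 replicate 1 pair they were -12.1 at ETV4, 5.54 at SOX17 and -11.2 at FOXA1. Of the 17 window regions tested here none reached the unadjusted threshold, where 0.0200% of 44920 regions did with E2 higher. Under E2, D538G and wild type differed by 11.3 at ETV4, 8.16 at SOX17 and -8.91 at FOXA1, with exact p of 0.619, 0.71 and 0.857. None of the 17 window regions tested there reached the unadjusted threshold, against 0.325% of 35729 regions higher in D538G and 0.890% lower.

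The E2 effect itself, taken within pairs of libraries of the same clone and replicate, was 52.3 ± 18.0 (SD, n = 4) in wild type and 14.2 ± 59.4 (SD, n = 6) in D538G at SOX17. In wild type the E2 library was higher in 4 of 4 pairs, and in D538G it was higher in 4 pairs and lower in 2. The difference of these effects, -38.1 for D538G minus wild type, had an exact permutation p of 0.267 (adjusted 0.622 over 4 windows). With all pairs, the difference was -36.5 at ETV4 (exact p = 0.357) and -23.4 at FOXA1 (exact p = 0.467). Without the D538G clone 2 replicate 1 pair, which includes the E2 list named Ctl, the D538G effect at SOX17 was 5.54 ± 62.1 (SD, n = 5). The difference at SOX17 was then -46.7, with an exact permutation p of 0.198. Likewise without that pair, the difference was -49.6 at ETV4 (exact permutation p = 0.214) and -34.9 at FOXA1 (exact permutation p = 0.278). The comparisons with DMSO share control libraries with those by genotype.

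**Figure D4:**
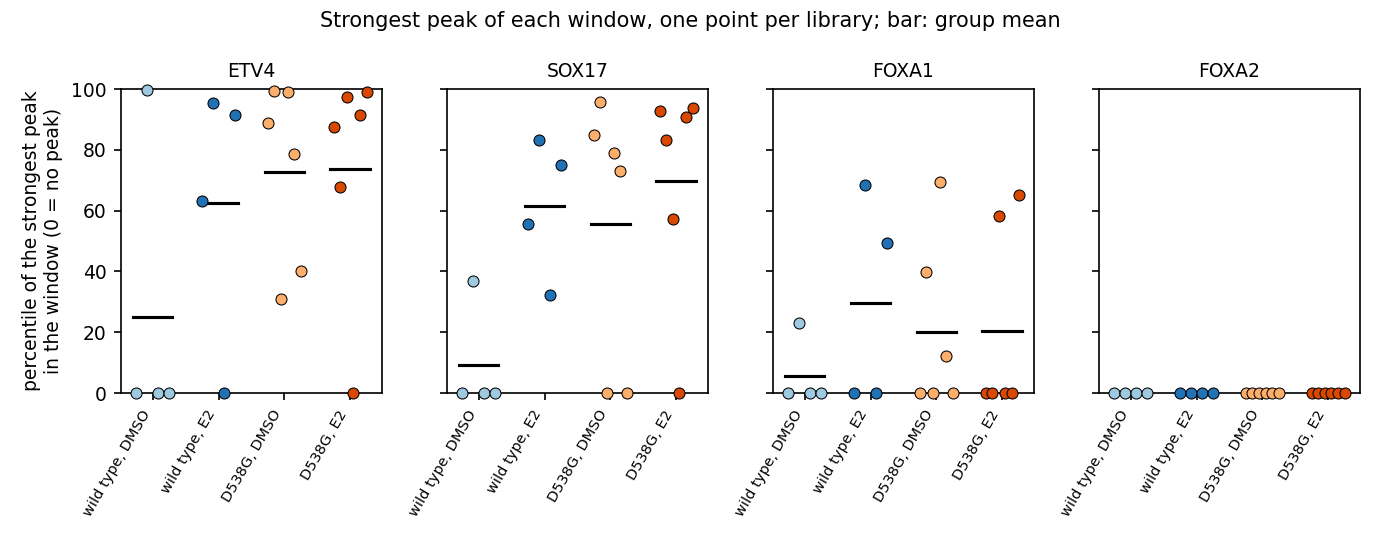
Percentile within its list of the strongest peak of each window (0 where there is none), 1 point per library, with the mean of each group as a bar, for the 4 windows. The wild-type DMSO points are at 0 except for 1 library, that of clone 1 replicate 2, in the first 3 panels, and all points of the FOXA2 panel are at 0.

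Regions elsewhere with a pattern most like that of each leading site were sought among 93583 regions, by the mean absolute difference of percentile over the 20 lists, with 0 for no peak. For ETV4 +19.1 kb, 9 regions had a peak in exactly the same lists. The closest of all was chr15:31630401-31632158, with a mean difference of 4.44 percentile points. For SOX17 -3.6 kb, 21 regions had a peak in the same lists, and the closest was chr1:229306001-229307186, at 5.71. For FOXA1 -2.5 kb no region had the same lists, and the closest, chr2:121525088-121525451, differed in 1 call, at 2.48.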

How the data were processed

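FLAG-ESR1 ChIP-seq peak lists of 20 libraries were used. Per the submitters' processing notes, Bowtie, MACS2 and DESeq2 were among the tools and hg19 was the build; versions and settings are not given in the sources used here. Each list holds 1 library's peaks, so peaks were called per sample. The signal value of each peak is the authors' own, with its reference not stated, and was used to rank peaks within a list. The deposited lists also hold a −log10 p and −log10 q and a score, of which the −log10 p served as a stricter alternative. Peaks on the mitochondrial sequence were set aside, and peaks overlapping by at least 1 bp were joined. Regions with peaks in at least 2 libraries compared were tested by Fisher's exact test over the whole genome, p-values were adjusted by the Benjamini-Hochberg method and called under 0.05, and strongest-peak percentiles were compared by exact permutation tests (scipy 1.17.1). Sites named have a peak in at least 4 of 20 libraries, at most 6 per window. Joining was checked with bedtools 2.31.1 and the tests on simulated data. Clones and replicate numbers pair E2 with DMSO libraries. Deviations of these pairs correlated at -0.444 to 0.552 in wild type and -0.462 to 0.493 in D538G. E2 and DMSO libraries not so matched gave -0.587 to 0.544 and -0.536 to 0.665, so these values do not set the matched pairs apart. The members and lists were chosen with earlier results of these data known. Planned counts around other partner genes and site motifs need hg19 annotation or sequence and were not run.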

Additional observations from a re-analysis of the deposited data

Results flagged for a closer look

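Of 24 combinations of measure, window and group with any spread, 8 held a library far from the others of its group by Dixon's ratio. In the wild-type DMSO group, clone 1 replicate 2 stood apart in 6 of them, all from 1 library in a group whose other 3 values were 0, where any value above 0 gives the highest possible ratio. The rate of about 1 in 20 groups that chance gives holds for continuous values and is no measure of these 6. Its strongest peak was at percentile 99.8 in the ETV4 window, 37.0 in the SOX17 window and 23.1 in the FOXA1 window, and it had 5, 2 and 2 peaks there, while the other 3 lists had none. These other lists held 51, 45 and 1080 peaks against its 29118. In the D538G DMSO group, clone 1 replicate 2 had 10 peaks in the ETV4 window, 5 of them in regions seen in no other list. In the D538G E2 group, clone 2 replicate 2 had a percentile of 0 at ETV4, with no peak there in a list of 1977 peaks.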

How the results depend on the processing

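All 8 counts of calls were 0 under all 130 alternatives run, which says little of stability: in wild type the smallest exact p that 4 against 4 libraries allow, 0.0286, became 0.306 after adjustment. Of 74 single values, 12 turned sign somewhere, none of them past a threshold, and the cause was not tested. With only the 1000 strongest peaks of each list, the ETV4 percentile differences became -23.6 for wild-type E2 minus DMSO, -3.20 for D538G E2 minus DMSO and -4.42 for genotype under DMSO. In the first and last of these, the wild-type DMSO mean rested on 1 list, clone 1 replicate 2, and its peak at ETV4 -79.1 kb. On the log2(number of peaks + 1) scale, D538G E2 minus DMSO became -0.190 at ETV4 and -0.227 at FOXA1, and genotype under E2 -0.0649 at ETV4 and -0.0915 at SOX17. Without the D538G clone 2 replicate 1 pair, chosen after seeing the data, D538G E2 minus DMSO became -12.1 at ETV4 and -11.2 at FOXA1. Differences in the percent of lists with a peak turned to -8.33 with a −log10 p of at least 20 (ETV4 -16.5 kb by genotype under DMSO, FOXA1 +5.3 kb under E2) and to -5 at FOXA1 +5.3 kb under E2 without that pair. Without the 2 lists under 100 peaks, also chosen after seeing the data, they became -16.7 by genotype under DMSO at ETV4 -16.5 kb, FOXA1 +5.3 kb and SOX17 +12.9 kb.

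Leaving out 1 library gave, for D538G E2 minus DMSO, -7.35 to 15.8 at ETV4 and -8.57 to 10.2 at FOXA1. For genotype under E2 it gave -9.51 to 26.1 at ETV4, -1.63 to 22.1 at SOX17 and -18.7 to 4.08 at FOXA1. The percent of lists at ETV4 +19.1 kb by genotype under E2 ranged from -16.7 to 25, and at ETV4 -16.5 kb, FOXA1 +5.3 kb and SOX17 +12.9 kb under DMSO, and FOXA1 +5.3 kb under E2, from -5 to 33.3.

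With the replicate block, ETV4 +19.1 kb under DMSO kept its difference of 75 percent of lists with an exact p of 0.04, and SOX17 -3.6 kb in wild type its 100 with 0.125; no other call changed. With the 1000 strongest peaks, ETV4 +19.1 kb under DMSO differed by 25 percent of lists (exact p 0.571), and SOX17 -3.6 kb was in none of the wild-type lists and so was not tested. That setting left 1 window region tested in 3 comparisons and 0 in wild-type E2 against DMSO.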
